A study of Homo sapiens with 15 samples.

Results

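Kinesins are motor proteins that walk along microtubules, and the human genome encodes a large family of them. They were examined here in LNCaP, a human prostate cancer cell line that depends on androgen and is widely used as a model of androgen-sensitive disease. A gene was taken as a kinesin where its name was KIF followed by a number and an optional letter, or by C and a number. The adaptor KIFAP3, pseudogenes and antisense rows were left out. The rule gave 34 of the 17272 genes in the deposited table. By their known roles, 13 were placed in a mitotic class, 12 in a transport class and 9 in a class of other kinesins. Another 8 names of the written classes (KIF2B, KIF17, KIF5A, KIFC3, KIF19, KIF21B, KIF25 and KIF26A) were not analysed here.

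All cells were starved for 2 days in charcoal-stripped serum at 10%, which holds little steroid, and all received the synthetic androgen R1881 at 1 nM. One group was treated with R1881 and the DMSO vehicle (10 libraries), and the other with R1881 and 2 µM darolutamide, an androgen receptor antagonist (5 libraries, called the combination). RNA was collected after 22 h and poly-A RNA was sequenced, so each comparison asks what darolutamide did in the presence of androgen. The paper's methods swap these group sizes and give R1881 in µM, and the sample labels were followed here. The labels number the R1881 libraries 51 to 55 and 71 to 75, and the combination libraries 86 to 90. No set of numbers holds both treatments, so an effect of the combination's own set and of darolutamide cannot be told apart. LNCaP is a single line, so the libraries repeat 1 genotype.

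Mitotic kinesins are made mainly by dividing cells. They build and focus the bipolar spindle, move and compact chromosomes, and carry the central spindle proteins that cut the daughter cells apart. Transport kinesins are used by cells at all stages of the cycle to carry vesicles, mitochondria, lysosomes and ciliary cargo, mostly towards microtubule plus ends. Genes expressed late in the cycle often carry a CCAAT box and, close to the start, a CHR element (cell cycle genes homology region), which are read by NF-Y and by the DREAM and MuvB complexes.

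The bases just upstream of 6 mitotic kinesins and of the transport kinesin KIF5B are printed below because they hold the elements that are counted after them. The first 3 carry both elements, and the next 3 carry CCAAT alone in these bases. KIF5B also carries CCAAT alone here, and it is shown as the 1 transport kinesin with a CHR element, which begins 140 bases before its start, outside these bases. Each line holds the 100 bases before the RefSeq start (GRCh38.p14), 5′ to 3′ on the strand of the gene, and for KIF22 the first listed start was taken. Capitals mark a CCAAT box (CCAAT, or ATTGG on the other strand) or a CHR element (TTTGAA, or TTCAAA on the other strand).
KIF11 (chr10:92593030-92593129, plus strand): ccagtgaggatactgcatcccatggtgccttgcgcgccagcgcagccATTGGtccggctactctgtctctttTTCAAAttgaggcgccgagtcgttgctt
KIF4A (chrX:70290004-70290103, plus strand): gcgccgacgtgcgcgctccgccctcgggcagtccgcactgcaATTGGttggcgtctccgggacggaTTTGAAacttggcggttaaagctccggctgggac
KIF18A (chr11:28108157-28108256, minus strand): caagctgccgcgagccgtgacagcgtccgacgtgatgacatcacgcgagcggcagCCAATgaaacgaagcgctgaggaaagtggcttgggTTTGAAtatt
KIF20A (chr5:138179012-138179111, plus strand): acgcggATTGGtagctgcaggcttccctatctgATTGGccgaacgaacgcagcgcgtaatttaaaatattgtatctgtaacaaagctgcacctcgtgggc
KIFC1 (chr6:33391723-33391822, plus strand): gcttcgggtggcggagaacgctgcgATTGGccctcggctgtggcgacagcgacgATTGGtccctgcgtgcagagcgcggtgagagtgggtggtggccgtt
KIF22 (chr16:29790651-29790750, plus strand): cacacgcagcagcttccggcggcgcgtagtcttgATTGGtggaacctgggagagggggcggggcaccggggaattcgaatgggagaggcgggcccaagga
KIF5B (chr10:32056426-32056525, minus strand): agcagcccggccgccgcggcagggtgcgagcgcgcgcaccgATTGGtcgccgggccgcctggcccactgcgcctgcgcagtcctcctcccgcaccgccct

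In GENCODE version 44, the windows of KIF11 and KIF20A lie in introns of longer transcripts of these genes, and that of KIF4A lies in an intron of PDZD11 on the other strand. The last 24 bases of the KIF22 window are annotated as exon of KIF22, and 9 bases of the KIF18A window are exon of METTL15. No annotated gene covers the KIFC1 and KIF5B windows. In KIF11 the CCAAT box begins 53 bases and the CHR element 28 bases before the start. In KIF4A the distances are 58 and 34 bases, and in KIF18A they are 45 and 10 bases.

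The longer windows supplied by RefSeq, from 250 bases before to 50 bases after the start, were searched on both strands for these elements. They covered 30 of the 34 kinesins (13 of 13 mitotic, 10 of 12 transport and 7 of 9 others), without KIF27, KIFC2, KIF26B and KIF13B. Some genes had several starts, with 14, 15 and 10 windows in the classes, and a gene was counted where any of its windows held the motif. The CHR element was found for 10 of 13 mitotic kinesins (76.9%), for 1 of 10 transport kinesins (KIF5B) and for 0 of 7 others. It was found for 18.2% of all 27305 genes with windows, for 13.3% of the 9968 of them in the table, and in 15.2% of all 35116 windows. The mitotic kinesins without it were KIF20A, KIF22 and KIF2C. The CCAAT box was found for 11 of 13 mitotic kinesins (84.6%), 4 of 10 transport kinesins and 3 of 7 others, against 39.7% of all genes and 43.7% of those in the table. An E2F site (TTCGCGC or TTGGCGC) was found for 3 of 13, 1 of 10 and 1 of 7, against 6.10% and 10.5%. AGAACA, part of the androgen response element, was found for 0 of 13 mitotic kinesins, 2 of 10 transport kinesins (KIF1A and KIF1C) and 0 of 7 others, against 17.5% and 12.5%. An E2F match can share bases with ATTGG, which happened in none of these kinesin windows. A match is a stretch of letters and not a measured binding site, and binding was not measured here.

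**Figure D1:**
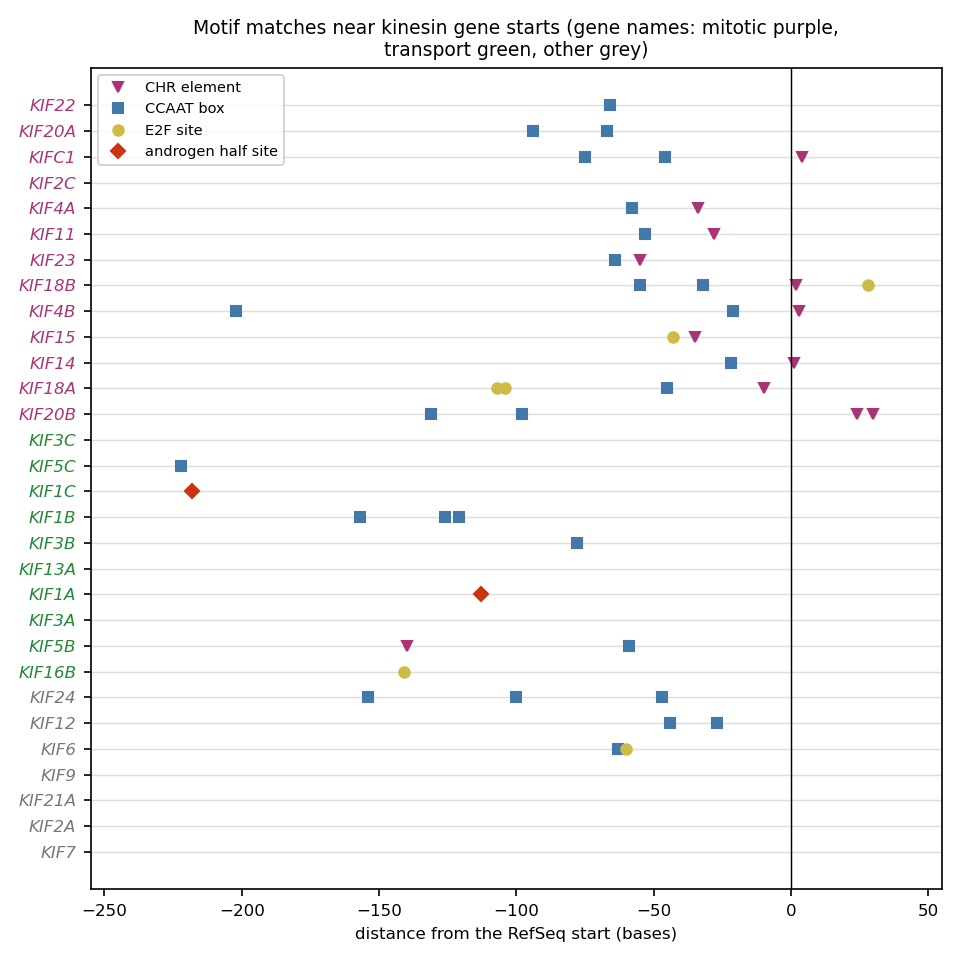
Motif matches in the windows of the 30 kinesins with a RefSeq window, with the distance of the first base of each match from the start on the horizontal axis in bases (0 is the first transcribed base) and 1 gene per row, all windows of a gene sharing its row. CHR elements (triangles) stand in 10 of the 13 mitotic rows and in 1 transport row, and AGAACA matches (diamonds) stand in 2 transport rows only.

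Expression is given as CPM, the name the authors use for reads scaled to a common library size. Differences are the combination minus R1881 on the log2(CPM + 0.5) scale, which understates the change of genes with few reads. They were tested with limma over all 17272 genes, and a gene was called lower or higher at a Benjamini-Hochberg adjusted p under 0.05. Of all genes, 23.7% were called lower and 22.8% higher, with a median difference of 0.00. Against this, 17 kinesins (50.0%) were lower, 4 were higher and 13 were not called, with a median of -0.20. The 17 lower genes were all 13 mitotic kinesins, 3 transport kinesins (KIF13B, KIF5C and KIF1C) and KIF24. The 4 higher genes were the transport kinesins KIF3C and KIF1B and, among the others, KIF26B and KIF12. Scaling by library totals instead gave 3030 genes lower and 5326 higher (17.5% and 30.8% of all genes), so that 36.3% of called genes were lower, against 50.9%. With it 17 kinesins were lower and 6 higher, KIF6 and KIF3B now among them.

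The mitotic class had a median difference of -0.61 and a range of -1.18 to -0.36. In 9 of its 13 members the highest combination value was under the lowest R1881 value, which held for 12.6% of all genes, and 10 members fell by at least 0.5 (6.68% of all genes). The transport class had a median of 0.00 and a range of -0.45 to 0.76, and the others a median of -0.05 and a range of -0.47 to 1.19. Among transport kinesins 1 lay wholly below and 1 wholly above the R1881 libraries, and among the others likewise 1 and 1, against 12.6% below and 10.8% above over all genes. RNA from bulk cultures does not separate fewer dividing cells from less kinesin RNA per cell, so these cannot be told apart.

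**Figure D2:**
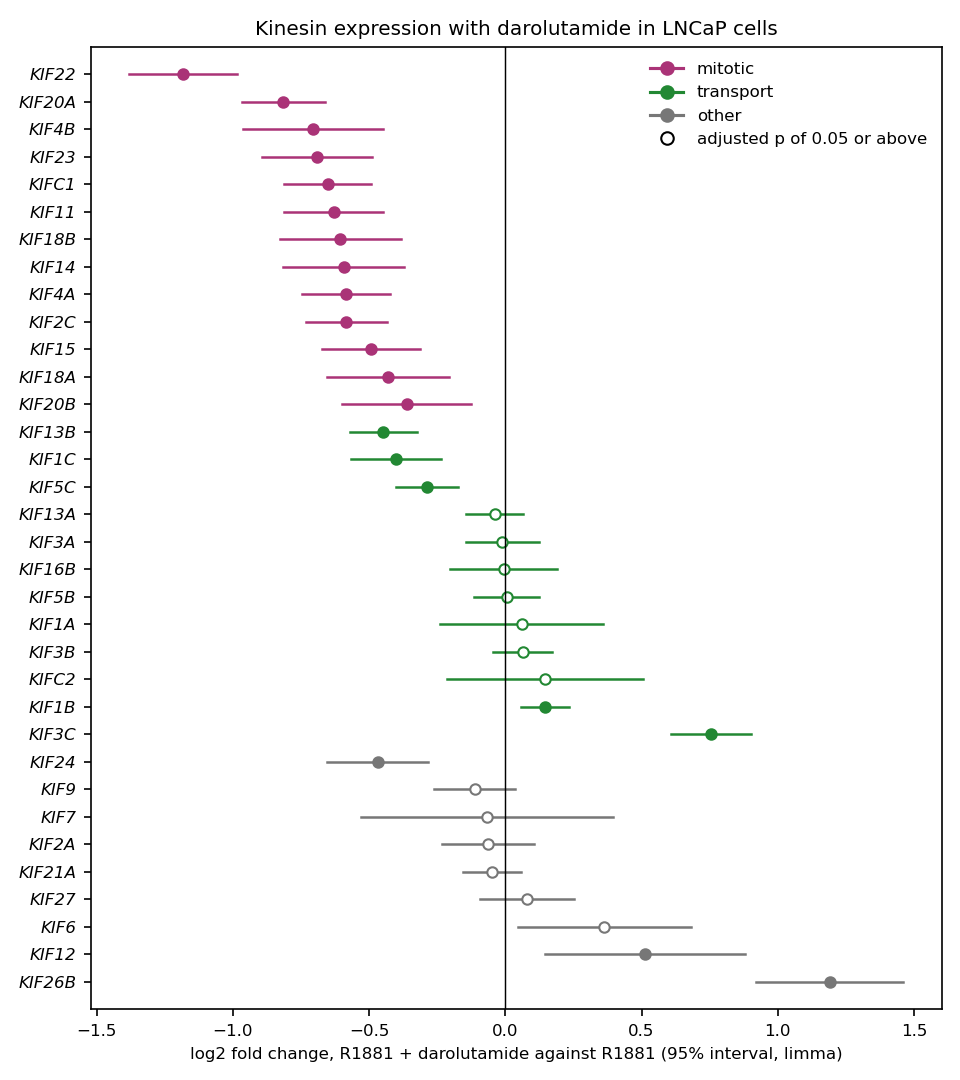
Difference of each of the 34 kinesins between the combination and R1881, as log2 fold change with its 95% interval (limma), grouped by class. All 13 mitotic kinesins are filled points left of 0, while 7 of 12 transport kinesins and 6 of 9 others are open points, that is, not called.

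The sum over the 13 mitotic kinesins was 454 ± 25.7 CPM with R1881 (SD, n = 10, range 420.3 to 488) and 261 ± 10.6 CPM with the combination (SD, n = 5, range 251 to 279). The groups were separate. The sum over the 12 transport kinesins was 1271 ± 27.8 CPM and 1239.7 ± 16.9 CPM, with ranges of 1222 to 1309.7 and 1219 to 1263 that overlapped. Mitotic kinesins thus made up 24.3% ± 0.863 of all kinesin CPM with R1881 and 15.9% ± 0.511 with the combination. KIF22 alone gave 164 of the 454 CPM with R1881 and 73.4 of the 261 CPM with the combination. The mitotic sum and share therefore follow KIF22 more than any other member. The mean log2 level of mitotic minus transport kinesins within a library was -1.30 ± 0.128 and -1.94 ± 0.067, and the groups did not overlap. The R1881 libraries also differed among themselves, as the plot of class means shows. The mitotic sum was 477 ± 8.14 CPM in libraries 51 to 55 and 431 ± 7.56 CPM in libraries 71 to 75 (SD, n = 5 each).

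**Figure D3:**
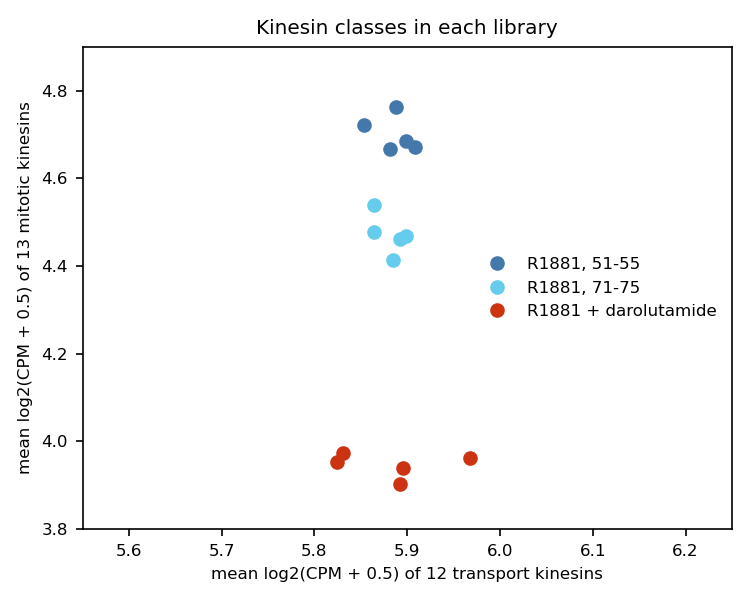
Mean log2(CPM + 0.5) of the 12 transport kinesins (horizontal) against that of the 13 mitotic kinesins (vertical), with 1 point per library. The combination lies at 3.90 to 3.97 on the mitotic axis, libraries 71 to 75 at 4.41 to 4.54 and libraries 51 to 55 at 4.67 to 4.76, while all 15 libraries lie between 5.82 and 5.97 on the transport axis.

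Levels were divided by the merged length of all annotated exons of a gene, which can exceed the length of any 1 transcript. This length was 5866 bases for KIF5B and 7169 bases for KIF22. Other lengths were not tried, and the order of the genes depends on this choice. By this measure, the most abundant kinesins with R1881 were transport motors. KIF5B, the ubiquitous heavy chain of kinesin-1, reached 68.7 CPM per kb of exon, followed by KIF1C at 27.7 and KIF3B at 23.4. The highest mitotic kinesin was KIF22 at 22.9 CPM per kb, and KIF20A came next among them at 12.2. The combination placed KIF22 at 10.2 and KIF20A at 6.87 CPM per kb, while KIF5B stayed at 69.0. At the other end, KIF26B had 0.0331 CPM per kb with R1881. A mean of at least 1 CPM was reached by 30 of the 34 kinesins, and KIF26B, KIF12, KIF6 and KIF7 lay below it.

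Among the motors of the spindle, KIF11 (ENSG00000138160, chr10:92574105-92655395), also called Eg5, slides antiparallel microtubules apart and is needed for a bipolar spindle. Its R1881 libraries ran from 31.9 through a median of 38.1 to 47.6 CPM, and its combination libraries had 23.9, 27.7, 24.1, 21.0 and 26.3 CPM in replicates 1 to 5. All 5 combination values were under all 10 R1881 values. The mean fell from 38.4 ± 4.87 (SD, n = 10) to 24.6 ± 2.56 CPM (SD, n = 5), a difference of -0.63 ± 0.086 (SE) with a limma adjusted p of 9.59e-06.

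KIFC1 (ENSG00000237649, chr6:33391823-33409896), a minus-end motor that gathers spindle poles, had 21.4, 22.9 and 26.4 CPM as lowest, median and highest R1881 values. The combination libraries had 14.2, 15.3, 12.6, 18.5 and 13.7 CPM. Again the groups did not overlap, with replicate 4 the highest of the 5. The difference was -0.65 ± 0.076 (limma adjusted p = 1.3e-06), from 23.5 ± 1.78 to 14.9 ± 2.24 CPM.

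KIF2C (ENSG00000142945, chr1:44739818-44767767), or MCAK, takes microtubules apart at centromeres and corrects faulty attachments. Its R1881 values were 28.6, 35.2 and 40.2 CPM at the low, middle and high end, and the combination values were 22.7, 22.9, 24.6, 22.5 and 22.8 CPM. The combination libraries were close to each other and all below the R1881 libraries. The mean went from 35.0 ± 3.81 to 23.1 ± 0.868 CPM, with a difference of -0.58 ± 0.070 and a limma adjusted p of 2.1e-06.

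KIF18B (ENSG00000186185, chr17:44924709-44947773), which trims astral microtubules, was less abundant. R1881 libraries had 9.93, 12.2 and 13.6 CPM as lowest, median and highest, and the combination had 7.98, 7.64, 5.68, 10.0 and 7.32 CPM. Replicate 4 lay just inside the R1881 range, so the groups overlapped. The difference was -0.61 ± 0.105 (limma adjusted p = 0.000119).

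The other spindle motors fell by smaller amounts. KIF15, which can take over from KIF11, went from 13.7 to 9.56 CPM (-0.49, limma adjusted p = 0.000122) with no overlap, and it shares its strand with the overlapping gene TMEM42. KIF18A, which limits chromosome movements at the metaphase plate, went from 7.53 to 5.44 CPM (-0.43, limma adjusted p = 0.00287) with overlapping groups.

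Of the motors that act on chromosomes, KIF22 (ENSG00000079616, chr16:29790727-29805385) changed most of all 34 kinesins in the lower direction. KIF22, or Kid, binds chromosome arms and pushes them towards the spindle equator. Its R1881 libraries ran from 152 through 159.8 to 191 CPM, and the combination libraries had 73.2, 63.6, 56.1, 100.2 and 73.7 CPM. All 5 lay far below the R1881 range, and replicate 4 was again the highest. The mean fell from 164 ± 11.7 to 73.4 ± 16.7 CPM, which is 44.7% of the R1881 level, a difference of -1.18 ± 0.094 with a limma adjusted p of 9.49e-09.

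KIF4A (ENSG00000090889, chrX:70290104-70420886), a chromokinesin that shapes chromosome arms and sets the length of the central spindle, had 33.8, 40.1 and 45.6 CPM as lowest, median and highest with R1881. The combination libraries had 27.2, 29.3, 26.3, 23.7 and 23.6 CPM, all below. The difference was -0.58 ± 0.077 (limma adjusted p = 5.94e-06). KIF4B, a nearly identical intronless copy, was listed at 5.43 and 3.13 CPM (-0.71, limma adjusted p = 0.000121). Reads of 50 bases may not separate the copies, so the KIF4B values are uncertain. PDZD11 overlaps KIF4A on the opposite strand, and whether counting used the strand is not given in the sources used here.

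Among the motors of cytokinesis, KIF20A (ENSG00000112984, chr5:138178719-138187723), or MKLP2, brings the chromosomal passenger complex to the central spindle. The R1881 libraries had 38.8, 47.4 and 53.1 CPM at the low, middle and high end. The combination libraries had 24.8, 26.4, 30.0, 23.8 and 27.3 CPM, all below the R1881 libraries. The mean fell to 56.3% of the R1881 level, at 26.5 ± 2.42 CPM, a difference of -0.81 ± 0.073 with a limma adjusted p of 4.33e-08. BRD8 and CDC23 overlap it on the opposite strand.

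KIF23 (ENSG00000137807, chr15:69414246-69448427), or MKLP1, forms the centralspindlin complex with RACGAP1. Its R1881 values were 16.7, 22.4 and 25.3 CPM as lowest, median and highest, and the combination values were 12.6, 13.1, 14.7, 12.1 and 13.1 CPM. The groups did not overlap. The difference was -0.69 ± 0.096 (limma adjusted p = 1.09e-05), from 21.6 ± 3.18 to 13.1 ± 0.958 CPM. KIF14, a partner of citron kinase at the midbody, went from 16.5 to 10.7 CPM (-0.59, limma adjusted p = 0.000163) with overlap. KIF20B, needed late in abscission, went from 29.5 to 22.6 CPM (-0.36, limma adjusted p = 0.0132), the smallest fall of the class, also with overlap.

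**Figure D4:**
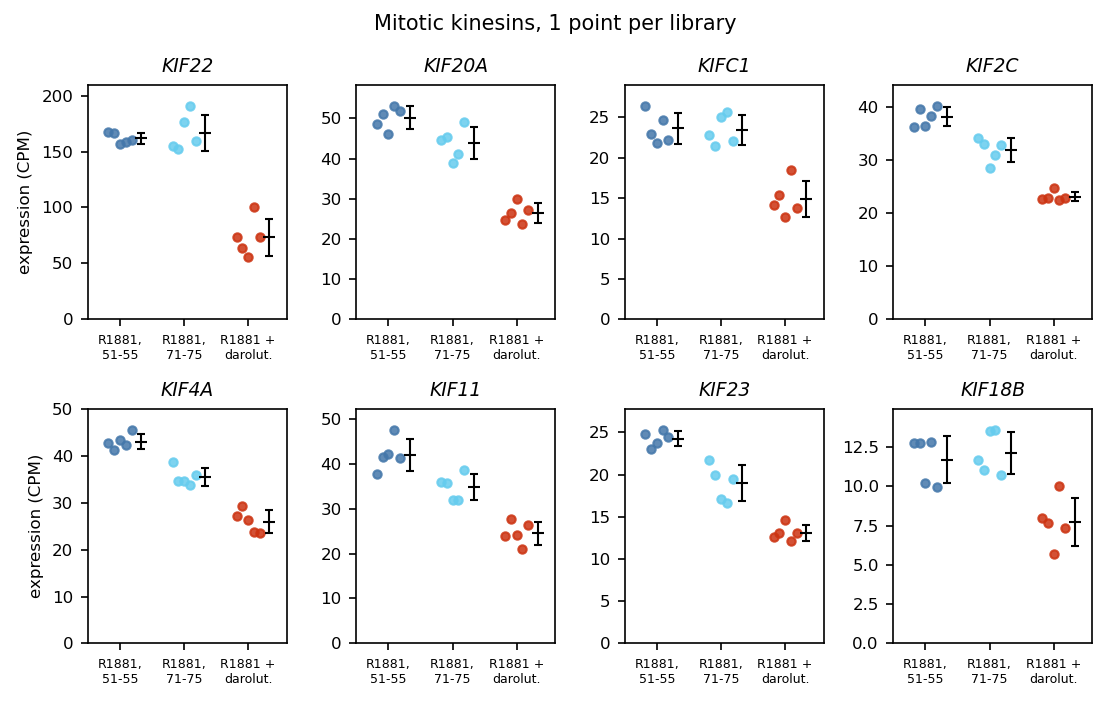
CPM of the 8 mitotic kinesins of smallest adjusted p, each library drawn as 1 point and each group's mean ± SD drawn beside its points, for R1881 libraries 51 to 55, R1881 libraries 71 to 75 and the combination. The combination points lie below all R1881 points in 7 panels, and in KIF18B 1 combination library reaches into the R1881 range.

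Because the mitotic level also differed between the sets of R1881 libraries, each set was compared alone. Against libraries 51 to 55 the median difference of the mitotic class was -0.72 with 13 of 13 lower (22.4% of all genes were lower), and against libraries 71 to 75 it was -0.50 with 11 of 13 lower (19.1%). KIF20B (-0.15, limma adjusted p = 0.209) and KIF18A (-0.30, limma adjusted p = 0.0602) were not called against libraries 71 to 75. KIF22 stood at -1.16 against the former set and at -1.20 against the latter, while KIF11 stood at -0.76 and -0.50. In 10 of 13 mitotic kinesins the 5 combination values were also under all values of libraries 71 to 75, which held for 14.6% of all genes. This count held for 1 of 12 transport kinesins (KIF13B) and 1 of 9 others (KIF24).

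The sets themselves were compared with libraries 71 to 75 minus 51 to 55, both with R1881. Over all genes 0.851% were lower and 0.249% higher. Of the mitotic kinesins 6 were lower, namely KIF2C (-0.26), KIF4A (-0.27), KIF23 (-0.35), KIF15 (-0.30), KIF14 (-0.40) and KIF20B (-0.42), with a class median of -0.27. KIF22 (0.04) and KIFC1 (-0.01) had nearly equal means. Of the transport kinesins 0 were called by limma in either direction, with 4 of 12 at an unadjusted p under 0.05 and 0 calls by edgeR and by DESeq2, and of the others 0 were called, with 3 of 9 at that level and 0 calls by either tool. The 6 mitotic calls were not stable. edgeR called 1 mitotic kinesin (0.226% of all genes were lower), DESeq2 called 6 (1.61%), and leaving out 1 library gave between 0 and 7, with 0 in each of the fits without R1881 replicate 5, 6, 7, 8, 9 or 10. The class median stayed between -0.30 and -0.24 in the fits with 1 library left out. The shares of all genes called in those fits are not given here. This comparison and the main one share the R1881 libraries.

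Proteins that work with mitotic kinesins were taken from a written list of 18 genes, all in the table. The list includes CENPE (-0.50, limma adjusted p = 0.000558), itself a motor that the KIF name rule left out of the kinesins. Of the 18 genes 16 were lower (88.9%, against 23.7% of all genes) and 0 higher (against 22.8%), with a median of -0.58. AURKA, the kinase that activates spindle assembly factors, went from 32.5 ± 2.48 to 20.2 ± 1.46 CPM (-0.67, limma adjusted p = 3.75e-08). CDCA8, or borealin, a subunit of the passenger complex that KIF20A carries, went from 34.3 ± 2.47 to 22.2 ± 0.505 CPM (-0.61, limma adjusted p = 2.15e-08). Against the median of the list stood NUMA1, which anchors dynein at spindle poles, with 0.09 and a limma adjusted p of 0.585. The 16 genes with an unadjusted p under 0.05 were all lower, and edgeR and DESeq2 also called 0 higher.

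Of the transport kinesins 25.0% were lower and 16.7% higher, near the shares of all genes (23.7% and 22.8%). KIF3C (ENSG00000084731, chr2:25926598-25982749), a subunit of the kinesin-2 motors that pairs with KIF3A, rose in every library. Its R1881 libraries had 10.2, 12.4 and 13.5 CPM as lowest, median and highest, and the combination libraries had 20.8, 20.4, 18.4, 22.6 and 21.9 CPM. The mean rose from 12.1 ± 1.12 to 20.8 ± 1.58 CPM, a difference of 0.76 ± 0.070 with a limma adjusted p of 7.11e-08. The other kinesin-2 subunits were not called, with KIF3A at -0.01 (95% interval -0.15 to 0.12) and KIF3B at 0.06 (-0.04 to 0.17).

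In kinesin-1, KIF5C (ENSG00000168280, chr2:148875227-149026759), the heavy chain best known from neurons, had 65.0, 76.9 and 81.5 CPM at the low, middle and high end with R1881. The combination libraries had 63.5, 61.6, 66.1, 54.9 and 61.9 CPM, of which 1 lay inside the R1881 range. The difference was -0.29 ± 0.054 (limma adjusted p = 0.000265). KIF5B had 403 ± 29.9 CPM with R1881 and 405 ± 31.0 CPM with the combination, a difference of 0.01 with a 95% interval of -0.11 to 0.13.

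In the kinesin-3 group, KIF13B (ENSG00000197892, chr8:29067278-29263124), a motor of vesicles and membrane receptors, was lower without overlap. Its R1881 values were 17.7, 18.8 and 20.95 CPM as lowest, median and highest, and the combination values were 14.1, 12.3, 12.98, 15.5 and 14.3 CPM. The mean fell from 19.0 ± 1.15 to 13.8 ± 1.25 CPM (-0.45 ± 0.059, limma adjusted p = 5.51e-06).

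KIF1C (ENSG00000129250, chr17:4997950-5028401), which carries dense-core vesicles and integrins, had 217, 235 and 267 CPM at the low, middle and high end with R1881. The combination libraries had 181, 162, 149, 235 and 181 CPM. Replicate 4 stood inside the R1881 range and the other 4 below it. The difference was -0.40 ± 0.078 (limma adjusted p = 0.000394).

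KIF1B (ENSG00000054523, chr1:10210570-10381603), a motor of mitochondria and synaptic vesicle precursors, was higher by a small amount. R1881 libraries ran from 152 through 172 to 178 CPM, and the combination libraries had 196, 183, 201, 172 and 192 CPM. The groups overlapped through replicate 4. The difference was 0.15 ± 0.041 (limma adjusted p = 0.00722), and with R1881 replicates 1 to 5 alone KIF1B (0.11) was not called. The remaining transport kinesins were not called: KIF13A at -0.04 (95% interval -0.14 to 0.07), KIF1A at 0.06 (-0.24 to 0.36), KIF16B at -0.01 (-0.20 to 0.19) and KIFC2 at 0.14 (-0.22 to 0.50). The intervals of KIF1A and KIFC2 do not exclude changes as large as some of those called.

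Of the other kinesins, KIF26B (ENSG00000162849, chr1:245154985-245709432), an atypical kinesin of developmental signalling that lacks a working motor, was higher in every library. Its R1881 libraries had 0.203, 0.499 and 0.692 CPM as lowest, median and highest, and the combination libraries had 1.87, 1.33, 1.98, 1.70 and 1.67 CPM. These values rest on 3 to 47 reads per library. The difference was 1.19 ± 0.128 (limma adjusted p = 4.95e-07), the highest rise of the family on this scale.

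KIF24 (ENSG00000186638, chr9:34252380-34329268), which restrains cilium growth at centrioles, was lower without overlap. R1881 libraries had 7.36, 9.87 and 10.9 CPM at the low, middle and high end, and the combination had 7.30, 6.96, 6.69, 6.46 and 6.05 CPM. The highest combination library came close to the lowest R1881 library. The difference was -0.47 ± 0.088 (limma adjusted p = 0.000277), and UBAP1 overlaps the gene on the opposite strand.

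KIF12 (ENSG00000136883, chr9:114086126-114099292), known from epithelia of kidney and bile ducts, was called higher on 7 to 45 reads per library. R1881 libraries had 0.397, 0.571 and 0.755 CPM as lowest, median and highest, and the combination had 0.758, 1.17, 0.440, 2.12 and 1.17 CPM. The difference was 0.51 ± 0.174 (limma adjusted p = 0.022). It was not called without combination replicate 4 (0.32, limma adjusted p = 0.0738), nor without combination replicate 2 or 5, nor against either set of R1881 libraries alone. KIF6 (0.36, 95% interval 0.05 to 0.68, limma adjusted p = 0.0576), KIF27 (0.08), KIF21A (-0.05), KIF2A (-0.06), KIF7 (-0.07) and KIF9 (-0.11) were not called. KIF2A, a microtubule depolymerase with roles in neurons and at spindle poles, was placed here, and the 95% interval of its difference ran from -0.23 to 0.11.

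**Figure D5:**
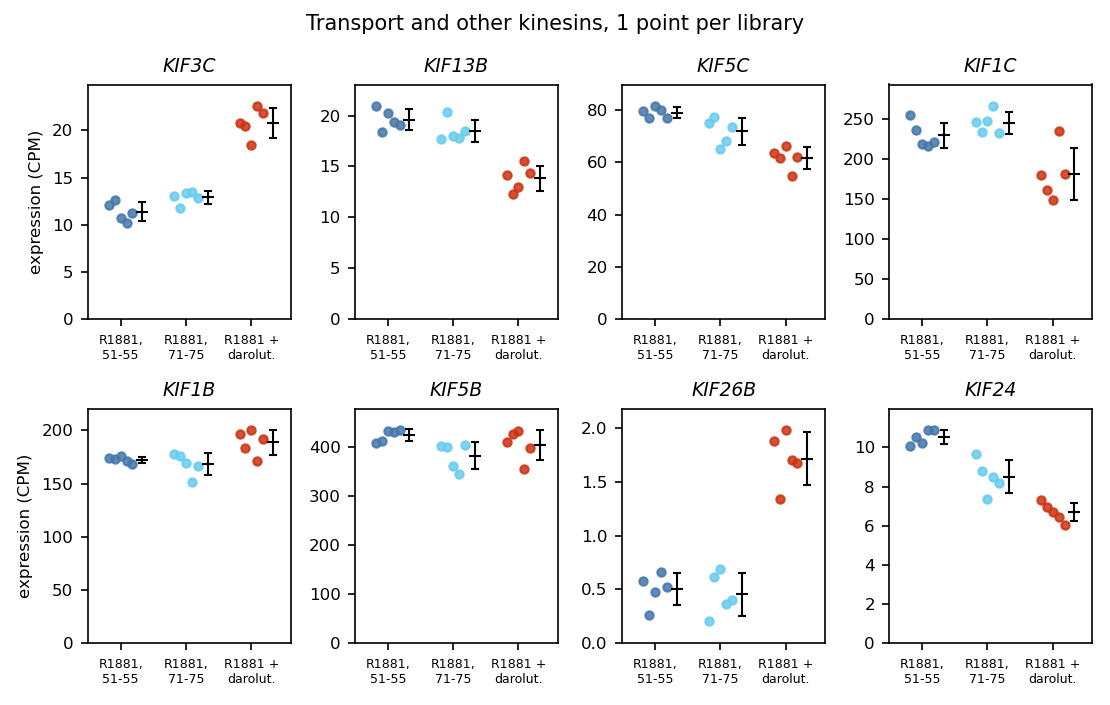
CPM of 6 transport kinesins (KIF3C, KIF13B, KIF5C, KIF1C, KIF1B, KIF5B) and 2 others (KIF26B, KIF24), each library drawn as 1 point and each group's mean ± SD drawn beside its points. The combination lies wholly above R1881 for KIF3C and KIF26B and wholly below for KIF13B and KIF24, and the groups overlap in the other 4 panels.

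Of 19 adaptors that tie transport kinesins to cargo 4 were lower (21.1%) and 3 higher (15.8%), with a median of -0.04. These shares are near the 23.7% and 22.8% of all genes. MADD, an adaptor of KIF1 motors, went from 68.9 ± 3.17 to 61.9 ± 2.31 CPM (-0.15, limma adjusted p = 0.00315). Against the median stood TRAK2, which joins mitochondria to kinesin-1, at 47.1 ± 3.54 and 57.9 ± 4.12 CPM (0.29, limma adjusted p = 0.000376).

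Dynein, the motor that runs the other way on the same tracks, and its dynactin partners gave 10 lower (40.0%) and 4 higher (16.0%) of 25 genes, against 23.7% and 22.8% of all genes, with a median of -0.07. The 4 higher genes became 7 with scaling by totals, where 30.8% of all genes were higher. With the replicate block they became 2, where 17.9% of all genes were higher. The cargo adaptor BICD2 went from 61.2 ± 2.55 to 38.9 ± 4.03 CPM (-0.65, limma adjusted p = 9.88e-09), and the light chain DYNLL2 from 338 ± 12.7 to 256 ± 13.8 CPM (-0.40, limma adjusted p = 5.8e-08). The dynactin subunit DCTN4 rose from 196 ± 11.2 to 232 ± 18.2 CPM (0.24, limma adjusted p = 0.000654). DYNC1H1, the heavy chain that carries the motor, had a difference of -0.03 and was not called.

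The libraries held 15830745 to 25317567 reads. The androgen response differed as labelled, since KLK3 (PSA) was at 1588 ± 209 and 615 ± 55.9 CPM (-1.36, limma adjusted p = 3.26e-10) and FKBP5 at 1502 ± 87.4 and 152 ± 11.1 CPM (-3.30, limma adjusted p = 1.37e-18). All 6 luminal prostate markers were in the table, summing to 5932 to 7069 CPM with R1881 and 2935 to 3379 CPM with the combination. Of these 4 were lower. KRT14, the 1 basal marker of 3 analysed here, lay at 0.706 to 1.44 CPM with R1881 and 0.528 to 0.878 CPM with the combination. COL1A1, COL3A1 and LUM, the 3 fibroblast markers of 6 analysed, summed to 6.36 to 10.5 and 13.5 to 30.6 CPM and were all higher. ENO2 and SYP, of 6 neuroendocrine markers, summed to 30.6 to 36.5 and 49.7 to 56.0 CPM, with ENO2 higher and SYP not called. The part of these shifts in the kinesin changes was not tested. Combination replicates 3 and 4 stood apart from each other in a way that followed GC content. Of these, replicate 4 lay farther from replicates 1, 2 and 5. Its chi-square per gene, a measure of the difference between 2 libraries, was 32.6 to 41.7 against them. That of replicate 3 was 6.65 to 9.99. Across the 34 kinesins the log2 difference of replicate 4 minus replicate 3 had a Pearson correlation of 0.825 and a Spearman correlation of 0.721 with transcript GC content. This difference was below 0 in 21 of the 34 and ran from -0.44 (KIF16B) to 1.67 (KIF7), with KIF22 at 0.83 and KIF1C at 0.65. Without these 2 libraries 17 kinesins were lower and 4 higher (23.5% and 21.1% of all genes), all 13 mitotic kinesins were lower, and KIF22 stood at -1.22 and KIF1C at -0.44.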

How the data were processed

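RNA of 15 LNCaP libraries was sequenced as single-end reads of 50 cycles (TruSeq Stranded mRNA, HiSeq2500). The authors used STAR on GRCh38 and featureCounts (Subread), and called the values CPM. Versions other than bcl2fastq 2.17, and the annotation, are not given in the sources used here. The deposited values are a scaled signal: in each library every value is a whole number of reads times 1 constant (100% of values whole within 0.001 reads), and columns sum to 1005403 to 1078567. Whole reads recovered this way averaged 22177686 per library, and no column belonged to another sample.

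The test planned for counts was edgeR. The values were scaled, so limma 3.58.1 (trend, R 4.3.3) was run on log2(CPM + 0.5) over 17272 genes with Benjamini-Hochberg adjustment. edgeR 4.0.16 (TMM) and DESeq2 1.42.0 on recovered reads, other pseudocounts (0.1 and 1), a minimum mean of 1 CPM, scaling by totals, either set of R1881 libraries, a replicate block and each library left out were alternatives. The fits were tested on simulated data.

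The members, classes and lists were chosen with earlier results of these data known. Per-library values are given for called kinesins of smallest adjusted p (up to 8 mitotic, 6 transport and 3 other) and for called kinesins against their class median. In each list the 2 genes of smallest p and 1 against the median are named. Some genes of the lists are not reported here. MADD, DYNC1H1, KIF5B, KIF2A and the genes set against them were chosen after their values were seen.

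Replicate numbers of both groups did not mark pairs: deviations of same-numbered libraries correlated by -0.139 to 0.335. The paper calls the libraries biological replicates. The p-values therefore reflect how far these libraries scatter. No pair of libraries differed by as little as counting noise. R1881 replicate 6 stood apart from its group, with a chi-square per gene of 11.7 to 27.2, except against replicate 5 (4.02). Whether this followed GC content was not tested. Positions are from GENCODE 44, and upstream sequences are from RefSeq.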

Additional observations from a re-analysis of the deposited data

Results flagged for a closer look

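Over 74 groups of values (34 kinesins and the class sums, in each treatment), 5 had a library far from the others by Dixon's criterion, where chance gives about 1 in 20. KIF1B was at 152 CPM in R1881 replicate 6 and at 167 to 178 CPM in the other 9. In the combination, replicate 3 was high for KIF2C (24.6 CPM, others 22.5 to 22.9) and for KIF14 (12.8 CPM, others 9.90 to 10.7). Combination replicate 4 was high for KIFC2 (55.9 CPM, others 21.8 to 28.8) and for the sum of mitotic kinesins (279 CPM, others 251 to 259). The direction of the mitotic sum did not rest on it, since R1881 libraries lay at 420.3 CPM and above.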

How the results depend on the processing

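Each kinesin kept its direction where it was called. All 13 mitotic kinesins were lower under each of these settings except against libraries 71 to 75 alone, where 11 were, and edgeR, DESeq2 and both other pseudocounts changed no call among the 34. The replicate block, which uses the 5 numbers the groups share, left 17 kinesins lower and 2 higher (18.3% and 17.9% of all genes), 1 transport and 1 other kinesin higher, a transport median of 0.025, and 2 dynein genes higher. The same 10 libraries without the block, a setting added after seeing the data, also gave 17 and 2 kinesins (19.8% and 19.7% of all genes). They gave 1 and 1 in these classes, a transport median of 0.025 and 1 adaptor higher. The calls lost in both settings were KIF1B and KIF12. A minimum mean of 1 CPM removed KIF26B, KIF12, KIF6 and KIF7 and changed no call among the 30 kinesins that stayed. Of those 30, 2 kinesins were higher (22.3% of all genes that stayed), with 0 others higher, and the median of the 30 was -0.38. The median of dynein genes moved to -0.049. Scaling by totals put the median of all genes at 0.066, from 0.00. It moved the medians to -0.13 (kinesins), 0.069 (transport), 0.023 (others) and 0.00096 (dynein). With it 2 adaptors were lower and 7 dynein genes higher (17.5% and 30.8% of all genes). Against libraries 51 to 55 the medians were -0.26 (kinesins), -0.050 (transport), 0.11 (others) and -0.10 (dynein). There 1 of the others and 2 dynein genes were higher (19.4% of all genes). Against libraries 71 to 75, 1 of the others and 1 adaptor were higher (19.5% of all genes) and the dynein median was -0.022. Without combination replicates 3 and 4 the medians were -0.0040 (others) and -0.12 (adaptors). For the others edgeR gave -0.0033 and DESeq2 0.0041. Between the sets of R1881 libraries, edgeR called 1 mitotic kinesin lower and DESeq2 gave the others a median of -0.13. Counting KIF2A as mitotic left 13 lower with a median of -0.60, and counting KIF21A as transport left 3 lower and 2 higher. Apart from the kinesins removed by the minimum mean, the causes were not tested.

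With 1 library left out, the main comparison gave medians of -0.025 to 0.019 (transport) and -0.058 to 0.090 (others). It gave 1 to 3 of the others higher, and 3 to 7 adaptors lower, with 7 without combination replicate 4. Without that library 4781 of all 17272 genes were lower and 4096 higher, against 4098 and 3946 with all libraries. KIF12 lost its call without combination replicate 2, 4 or 5. KIF6 gained a call as higher without R1881 replicate 6 or 9, or without combination replicate 1 or 4. KIF3B gained one without combination replicate 4 (0.12). Between the sets, 0 to 7 mitotic, 0 to 1 transport and 0 to 2 other kinesins were lower. The medians between the sets were -0.30 to -0.24 (mitotic), -0.077 to -0.026 (transport) and -0.066 to 0.022 (others). Precision for KIF26B, KIF12, KIF6 and KIF7 is limited by their few reads.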
